A study of Mus musculus with 2 samples.

Results

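The let-7 family holds the microRNAs let-7a, let-7c and let-7f, each of which mouse encodes at 2 loci. These 6 duplicated loci, Mirlet7a-1, Mirlet7a-2, Mirlet7c-1, Mirlet7c-2, Mirlet7f-1 and Mirlet7f-2, are described here across microRNA-seq libraries of the gastrocnemius, the large calf muscle. They were chosen as the let-7 genes that carry a copy number in their symbol in the GENCODE M21 annotation, and they are 6 of the 2202 microRNA genes counted. The muscle came from male B6CASTF1/J mice, a hybrid strain with a C57BL/6J and a CAST parent, at 36 days of age. The 2 libraries, replicate 1 and replicate 2, form 1 group, carry no treatment, and are labelled as different males. There is no second condition, so loci are compared with each other and between the 2 animals. RNA came from whole muscle, in which fewer cells of a type and less RNA per cell cannot be told apart.

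A let-7 microRNA is cut from a hairpin precursor, whose 5p arm gives the mature strand loaded into Argonaute and whose 3p arm gives the passenger strand. The mature strand pairs through its seed, bases 2 to 8, with messenger RNAs and lowers their output. The family is known for rising as cells leave the cell cycle and differentiate, and the RNA-binding proteins LIN28A and LIN28B block the maturing of its precursors. Known targets include Hmga2, Igf2bp family members and Ras genes, and in skeletal muscle the family is known for restraining insulin signalling.

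The mature sequences are shown first because the way reads can be assigned to a locus follows from them. Sequences and their positions are from RefSeq on GRCm38.p6, the build called mm10 in the labels, and all 6 loci were matched by symbol. Capitals mark the seed.
let-7a-5p: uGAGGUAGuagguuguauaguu
let-7c-5p: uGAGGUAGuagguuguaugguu
let-7f-5p: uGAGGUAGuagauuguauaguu

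All 3 have the same seed, GAGGUAG, as do the 6 family members encoded once, namely let-7b, let-7d, let-7e, let-7g, let-7i and miR-98. Counting positions from 1 at the 5′ end of the mature strand, let-7a and let-7c differ by A19G, and let-7a and let-7f differ by G12A. Both changes lie outside the seed. Within each pair of loci the 22 bases of the mature strand are identical.

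The copies part just outside the mature strand. The next sequences give the mature strand with 4 bases of the hairpin on each side, and capitals mark bases that differ between the copies of a pair. In order, they lie at chr13:48538235-48538264 on the minus strand, chr9:41536728-41536757 on the plus strand, chr16:77599668-77599697 on the plus strand, chr15:85706612-85706641 on the plus strand, chr13:48537885-48537914 on the minus strand and chrX:151912349-151912378 on the plus strand.
Mirlet7a-1: GggAugagguaguagguuguauaguuuUAG
Mirlet7a-2: AggUugagguaguagguuguauaguuuAGA
Mirlet7c-1: gggUugagguaguagguuguaugguuuAgA
Mirlet7c-2: gggGugagguaguagguuguaugguuuUgG
Mirlet7f-1: AgAGugagguaguagauuguauaguuGuGg
Mirlet7f-2: GgGAugagguaguagauuguauaguuUuAg

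The stretch shared by the copies around the mature strand is 23 bases for let-7a, 23 bases for let-7c and 22 bases for let-7f. Downstream the copies first differ by U24A for Mirlet7a-1 to Mirlet7a-2, by A24U for Mirlet7c-1 to Mirlet7c-2 and by G23U for Mirlet7f-1 to Mirlet7f-2, counted from the first base of the mature strand. A read that starts with the mature strand and follows the reference thus points to 1 locus from a length of 23 bases for let-7f and of 24 bases for let-7a and let-7c.

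The 3p arms separate the copies better, with 1 exception that crosses the families. They are shown because reads from this arm can be counted where the mature strand cannot, and capitals mark bases that differ from the other copy, position by position from the 5′ end.
let-7a-1-3p: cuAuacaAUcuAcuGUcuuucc
let-7a-2-3p: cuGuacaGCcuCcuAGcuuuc
let-7c-1-3p: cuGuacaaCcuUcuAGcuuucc
let-7c-2-3p: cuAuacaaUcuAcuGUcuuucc
let-7f-1-3p: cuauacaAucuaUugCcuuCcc
let-7f-2-3p: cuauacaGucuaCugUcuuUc

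The arms of a pair differ at 6 of 21 compared bases for let-7a, 5 of 22 for let-7c and 4 of 21 for let-7f. The 3p arms of Mirlet7a-1 and Mirlet7c-2 are identical, although their mature strands are not, and the longest stretch these hairpins share is 26 bases. Of the 3p arms of 22 bases, that of Mirlet7c-1 and that of Mirlet7f-1 each occur at 1 annotated hairpin.

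Every 22-base window of the 6 hairpins was then looked up, on both strands, in the 2202 annotated microRNA hairpins. Of the windows of Mirlet7f-1, 67 of 68 occurred at 1 hairpin locus, and of those of Mirlet7f-2, 61 of 62. Mirlet7a-2 had 73 of 75 and Mirlet7c-1 had 71 of 73. Mirlet7a-1, with 66 of 73, and Mirlet7c-2, with 67 of 74, shared more windows, the further ones on the side of their common 3p arm. At 23 bases no window of Mirlet7f-1 or Mirlet7f-2 was shared, and at 24 bases only Mirlet7a-1 and Mirlet7c-2 still had shared windows, 3 each. The single-copy family members had no shared window at 20 bases or more in the lengths searched. Matches outside annotated hairpins were not analysed here, and CAST alleles are not in this reference.

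**Figure D1:**
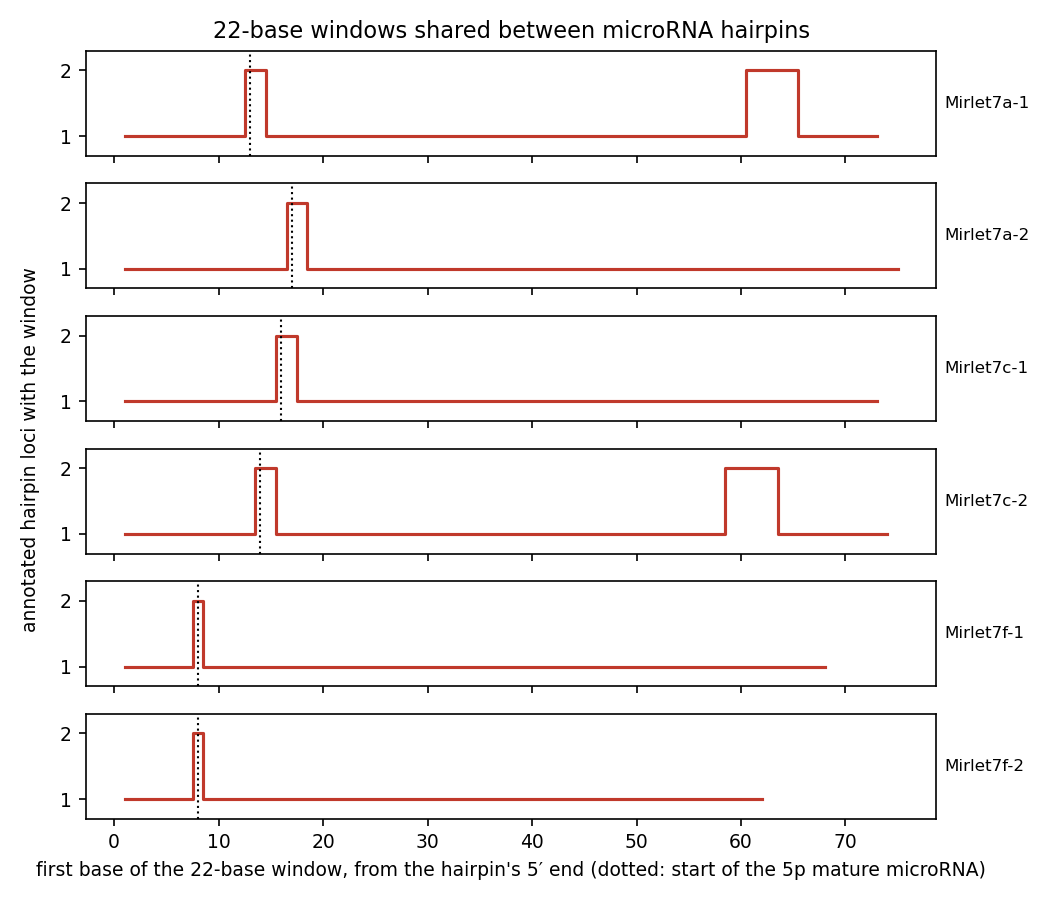
Number of annotated microRNA hairpin loci (y axis) that hold each 22-base window of the 6 duplicated let-7 hairpins, by the window's first base from the 5′ end of the hairpin (x axis). Shared windows stand at the start of the mature 5p strand in every hairpin, marked by the dotted line, and Mirlet7a-1 and Mirlet7c-2 share further windows on the 3p side.

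The loci lie in 5 genomic places. On chromosome 13, minus strand, Mirlet7f-1 (ENSMUSG00000105621.1, 48537829 to 48537917) and Mirlet7a-1 (ENSMUSG00000065421.3, 48538179 to 48538272) stand 261 bases apart in an exon of the lincRNA 6720427I07Rik, which also holds Mirlet7d. Mirlet7a-2 (ENSMUSG00000092770.1) occupies chromosome 9 from 41536716 to 41536811, plus strand, in an intron of the noncoding transcripts 3110039I08Rik and Gm49317. Mirlet7c-1 (ENSMUSG00000065557.3) is on chromosome 16 from 77599657 to 77599750, plus strand, in an intron of Mir99ahg. Mirlet7c-2 (ENSMUSG00000065608.1) is on chromosome 15 from 85706603 to 85706697, plus strand, in an exon of Lncppara together with Mirlet7b. Mirlet7f-2 (ENSMUSG00000065602.1) is on the X chromosome from 151912346 to 151912428, plus strand, in an intron of the ubiquitin ligase gene Huwe1, which also holds Mir98.

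Replicate 1 had 4134880 reads counted on the strand of a microRNA gene and replicate 2 had 3219740. A further 13878974 reads of replicate 1 (70.4% of its 19726010 reads) and 12282813 of replicate 2 (73.3% of 16764463) aligned to several loci. The deposited layout is one in which those reads are added to no gene, and it is taken to hold here. The counts below are then of reads aligned to 1 locus, not of the amount of let-7a, let-7c or let-7f. Of the markers of the labelled tissue, all 8 skeletal muscle microRNAs were counted, with a summed level of 27264 CPM in replicate 1 and 30326 CPM in replicate 2. CPM is a gene's count per 1000000 counted reads. Mir206, at a mean of 27262 CPM, made up most of the muscle sum. Listed markers of other cells had higher counted sums. Endothelium stood at 85413 and 95833 CPM and smooth muscle at 85297 and 93638 CPM in replicates 1 and 2. The muscle list holds the duplicated loci of Mir1a and Mir133a, whose reads that aligned to several loci would be missing from its sum. These sums thus rank counted reads, not the amounts of muscle and vascular microRNAs. Leukocyte markers summed to 1138 and 1030 CPM and red cell markers to 405 and 394 CPM. The 6 listed neuron loci, all of Mir124a and Mir9, were at 0, and the liver microRNA Mir122 had 20.6 and 4.66 CPM in replicates 1 and 2.

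The 6 duplicated loci together took 26623 counts of replicate 1 and 18839 of replicate 2, or 0.614% ± 0.0415 of counted reads (SD, n = 2). By the exact Clopper-Pearson method, the 95% interval of this share ran from 0.636% to 0.652% in replicate 1, and from 0.577% to 0.594% in replicate 2. The 6 family members encoded once held 13.0% ± 0.634. The duplicated loci thus made up 4.56% of the family's counts in replicate 1 and 4.45% in replicate 2. Their summed count equals 0.192% of the reads that aligned to several loci in replicate 1 and 0.153% in replicate 2. How many of those reads are let-7 cannot be read from the tables.

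Mirlet7f-2 stood far above the other duplicated loci. Its 20855 counts in replicate 1 and 15369 in replicate 2 correspond to 5044 and 4773 CPM. It took 78.3% of the summed count of the 6 loci in replicate 1 and 81.6% in replicate 2. In order of mean level over all genes it held place 31, and the next duplicated locus held place 85.

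Mirlet7c-2 came next at 563 ± 101 CPM, on 2624 counts of replicate 1 and 1584 of replicate 2. Mirlet7a-1, from the chromosome 13 cluster, had 1109 and 706 counts, or 244 ± 34.6 CPM. The 2 loci also share their 3p arm, and Mirlet7c-2 was higher than Mirlet7a-1 in both libraries, by 1.20 ± 0.05 on the log2 scale.

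Mirlet7c-1 averaged 197 ± 42.5 CPM, on 941 counts of replicate 1 and 539 of replicate 2. Mirlet7f-1 had 658 and 423 counts, or 145 ± 19.6 CPM. Mirlet7a-2 had 436 and 218 counts, the lowest of the 6 in both libraries, or 86.6 ± 26.7 CPM. The 3 loci spanned a narrow range beside the distance to Mirlet7f-2.

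The order of the 6 loci was the same in both libraries. As ranges over the libraries, the CPM of neighbours in this order overlapped for Mirlet7a-1 and Mirlet7c-1, the first at 219 to 268 and the second at 167 to 228. Within each library, where no scaling enters, the log2 ratio of Mirlet7a-1 over Mirlet7c-1 was 0.31 ± 0.11, that of Mirlet7c-1 over Mirlet7f-1 was 0.43 ± 0.12 and that of Mirlet7f-1 over Mirlet7a-2 was 0.77 ± 0.26. Each of these differences was larger than its SD, but a two-sided exact sign-flip test has 0.5 as its smallest p with 2 libraries and cannot pass a threshold. The closest pair was Mirlet7a-1 and Mirlet7c-1, where Mirlet7a-1 took 54.1% of the pair's counts in replicate 1 (interval 51.9% to 56.3%, exact) and 56.7% in replicate 2 (53.9% to 59.5%). These intervals hold counting error alone and treat each read as a separate draw. Reads copied by PCR do not stand for separate molecules, so the intervals can be too narrow even for that error. Counts are per locus, without a length correction, and the hairpins are 83 to 96 bases long.

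**Figure D2:**
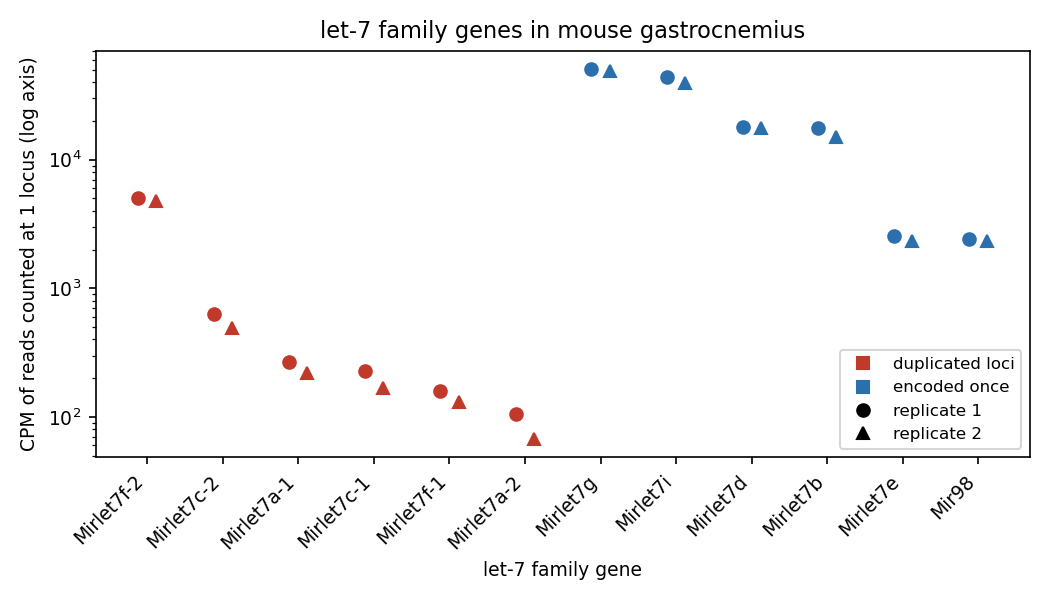
CPM of reads counted at 1 locus (y axis, log scale) for the 6 duplicated let-7 loci, left, and the 6 family members encoded once, right, with a circle for replicate 1 and a triangle for replicate 2. Mirlet7f-2, at 5044 and 4773 CPM, is the duplicated locus that reaches the range of the single-copy genes, above Mirlet7e and Mir98.

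The single-copy members spanned 2383 ± 47.5 CPM for Mir98 to 49724 ± 1188 CPM for Mirlet7g. Mirlet7f-2 lay above Mir98 and above Mirlet7e, which had 2442 ± 140 CPM, while the other 5 duplicated loci lay below every single-copy member. This order is of counted reads. The 22-base mature strand of each duplicated locus occurs at 2 hairpins, while the single-copy members had no shared window of that length. Without Mirlet7f-2, the duplicated loci held 0.988% of the family's counts in replicate 1 and 0.819% in replicate 2.

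The copies of each mature microRNA were counted unequally. Mirlet7a-1 took 71.8% of the counts of the let-7a pair in replicate 1 (exact 95% interval 69.5% to 74.0%) and 76.4% in replicate 2 (73.5% to 79.1%), a log2 ratio over Mirlet7a-2 of 1.52 ± 0.25 or 2.87-fold. Mirlet7c-1 took 26.4% of the let-7c pair in replicate 1 (25.0% to 27.9%) and 25.4% in replicate 2 (23.5% to 27.3%). Its log2 ratio over Mirlet7c-2 was −1.52 ± 0.05, so Mirlet7c-2 was 2.86-fold higher. Mirlet7f-1 took 3.06% of the let-7f pair in replicate 1 (2.83% to 3.30%) and 2.68% in replicate 2 (2.43% to 2.94%). Its log2 ratio over Mirlet7f-2 was −5.08 ± 0.14, and Mirlet7f-2 was 33.9-fold higher.

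The direction was the same in both libraries for all 3 pairs, and each log2 ratio exceeded its SD. The higher loci also shared a sequence feature that the choice of loci did not use. In each of the 3 pairs the locus with more counts was the one whose first differing base downstream of the mature strand is U, that is Mirlet7a-1 (U24A), Mirlet7c-2 (A24U) and Mirlet7f-2 (G23U). The feature was noticed after the counts were seen and has no test. The tables hold counts and no read ends, so which reads made up these counts was not tested.

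Across the whole table, 26 duplicated microRNAs with copies numbered 1 and 2 had at least 10 summed counts. Their median absolute log2 ratio between copies was 2.24, and 21 of them (80.8%) differed over 2-fold. The let-7f pair, at 5.08, held place 7 from the most unequal, and let-7a and let-7c, both at 1.52, held places 16 and 17. All 3 let-7 pairs passed 2-fold, as did 18 of the other 23, so unequal counts of copies are the usual case in these libraries.

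**Figure D3:**
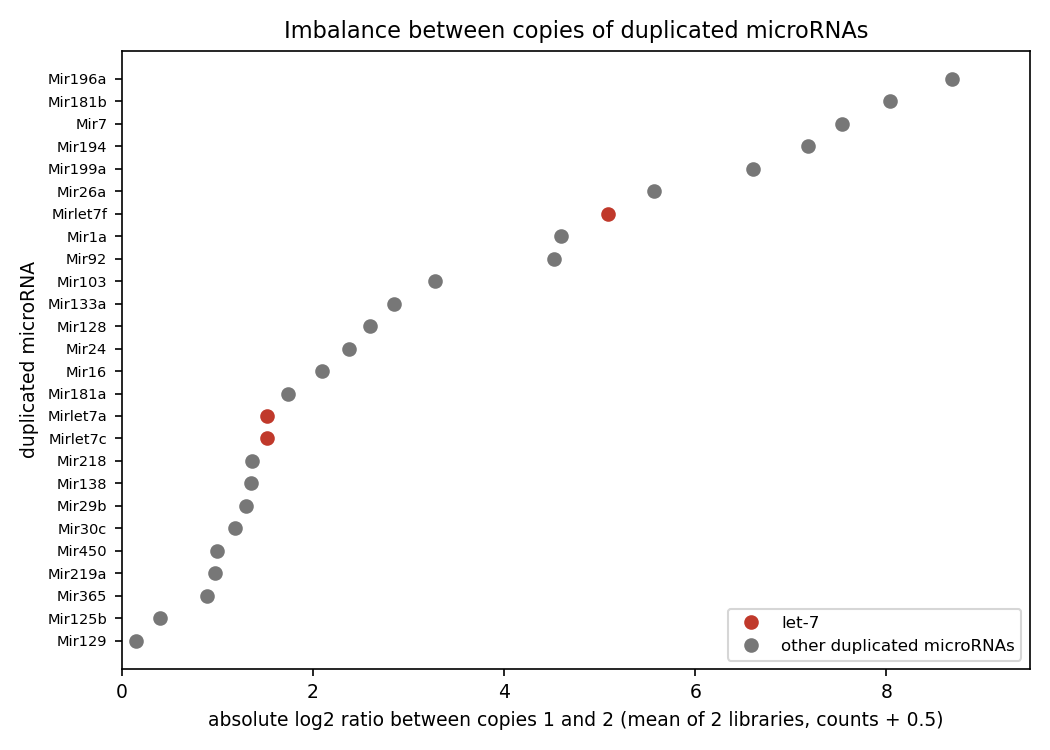
Absolute log2 ratio between copies 1 and 2 (x axis, mean of 2 libraries, counts + 0.5) for the 26 duplicated microRNAs with at least 10 summed counts (y axis), ordered from most to least unequal. The let-7f pair stands at 5.08 and the let-7a and let-7c pairs at 1.52, in the lower part of the order.

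MicroRNAs of a genomic cluster are often cut from a shared primary transcript. Each duplicated locus was set against the nearest single-copy microRNA within 10000 bases on its strand. Reads of the 22-base mature strand of a duplicated locus match 2 hairpins and are taken to be left out of its count. Every 22-base window of Mirlet7d, Mirlet7b and Mir98 occurred at 1 hairpin locus, and windows of Mir100 and Mir99a were not looked up. The fold values are thus of counted reads and do not measure the amounts made from a shared transcript. Mirlet7a-1 was 72.9-fold below Mirlet7d (log2 ratio −6.19 ± 0.19), which had 73822 counts in replicate 1 and 56389 in replicate 2. Mirlet7f-1, between them, was 122-fold below Mirlet7d (log2 ratio −6.93 ± 0.18). Mirlet7a-1 and Mirlet7f-1 themselves kept a nearly fixed ratio, with log2 values of 0.75 in replicate 1 and 0.74 in replicate 2.

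Mirlet7a-2 was 88.6-fold below Mir100 (log2 ratio −6.47 ± 0.46), a miR-99 family member 5211 bases upstream. Mirlet7c-1 was 121-fold below Mir99a (log2 ratio −6.92 ± 0.14), its neighbour at 656 bases. Mirlet7c-2 was 29.2-fold below Mirlet7b (log2 ratio −4.87 ± 0.10), 621 bases away. The exception was Mirlet7f-2, which was 2.06-fold above Mir98 (log2 ratio 1.04 ± 0.03), with Mir98 at 9994 and 7566 counts.

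The more distant members of the clusters on chromosomes 9 and 16, Mir125b-1 and Mir125b-2, are themselves copies of 1 mature microRNA. Mirlet7a-2 was 2.77-fold below Mir125b-1 (log2 ratio −1.47 ± 0.05), 45114 bases apart. Mirlet7c-1 and Mir125b-2 were nearly level, with a log2 ratio of 0.05 in replicate 1 and 0.23 in replicate 2. There Mirlet7c-1 took 50.8% of the pair's counts in replicate 1 (exact 95% interval 48.5% to 53.1%), which includes an equal share, and 54.0% in replicate 2 (50.8% to 57.1%), which lies above it.

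**Figure D4:**
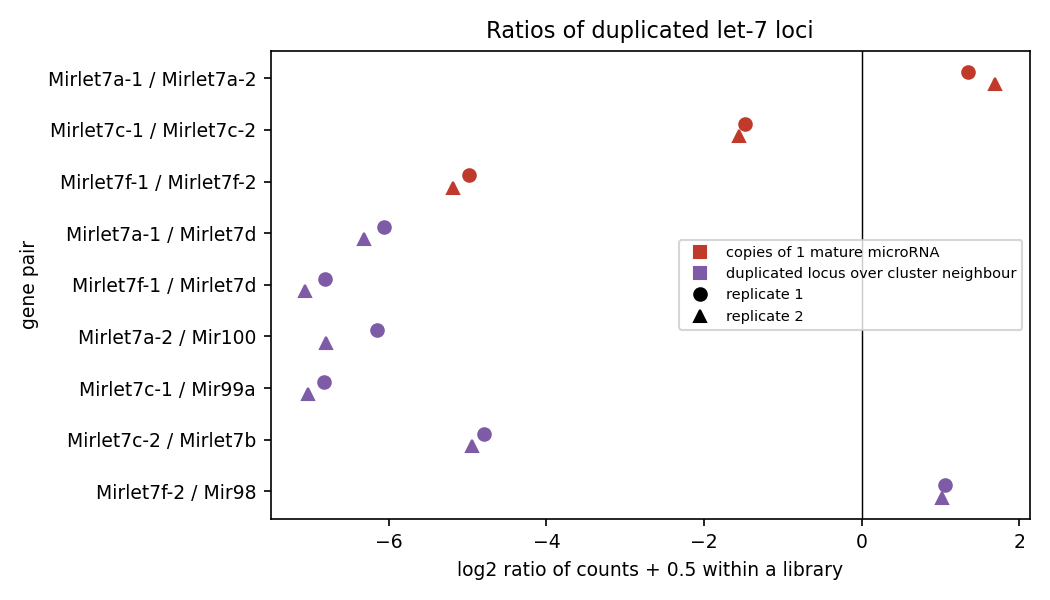
log2 ratio of counts + 0.5 within a library (x axis) for copies of the same mature microRNA (upper 3 rows) and for each duplicated locus over its single-copy cluster neighbour (lower 6 rows), with circles for replicate 1 and triangles for replicate 2. Mirlet7f-2 over Mir98, at 1.06 and 1.02, is the neighbour pair to the right of 0. Reads of the 22-base mature strand of a duplicated locus match 2 hairpins and are taken to be left out of its count.

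The strand columns were compared next. No duplicated locus had a read on the opposite strand in either library, and 5 of the 6 had the same count with and without regard to strand. Mirlet7f-1 was at 0 in the column that ignores strand, and the annotated microRNA Gm24111 covers it on the opposite strand. Gm24111 had 0 counts on its own strand in both libraries, and Mirlet7e, covered by Gm25927, was likewise at 0 in the column that ignores strand.

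The 2 animals were then compared by the log2 ratio of replicate 1 over replicate 2, taken on CPM + 1 after TMM scaling, over the 261 genes that averaged 10 CPM or more. None of the 6 duplicated loci differed over 2-fold, and 5.36% of all those genes did. The ratio was above 0 for 5 of the 6, against 55.9% of all genes, and ran from −0.09 for Mirlet7f-2 to 0.47 for Mirlet7a-2. With 1 library on each side these values have no replicate check.

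In what follows CPM are given before TMM scaling, and ratios and their intervals after it. Mirlet7a-2, at 105 CPM in replicate 1 and 67.7 CPM in replicate 2, was 1.38-fold higher in replicate 1 after scaling. The counting interval of its log2 ratio ran from 0.23 to 0.71. Mirlet7c-1, at 228 and 167 CPM, had a log2 ratio of 0.27 (0.12 to 0.43), and Mirlet7c-2, at 635 and 492 CPM, one of 0.20 (0.11 to 0.29). For Mirlet7a-1 (0.12, interval −0.01 to 0.26) and Mirlet7f-1 (0.11, −0.07 to 0.29) the counting interval included 0. Mirlet7f-2 had −0.09 (−0.12 to −0.06). The sum of the 6 loci, most of it Mirlet7f-2, had −0.029, and the sum of the other 5 had 0.21.

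The single-copy members had a median ratio of −0.08, with Mirlet7b alone above 0, against 0.16 for the duplicated loci and 0.05 over all 261 genes. The signs changed with the scaling. Under total-count scaling, which moved the median of all genes to 0.21, all 6 duplicated and all 6 single-copy genes had a ratio above 0, while the duplicated median, at 0.33, stayed above the single-copy median, at 0.08. Under TMM scaling, in the chromosome 9 cluster, where Mirlet7a-2 had 0.47, Mir125b-1 had a ratio of 0.40 and Mir100 one of −0.18. In the chromosome 16 cluster, where Mirlet7c-1 had 0.27, Mir125b-2 had 0.46 and Mir99a had 0.08.

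**Figure D5:**
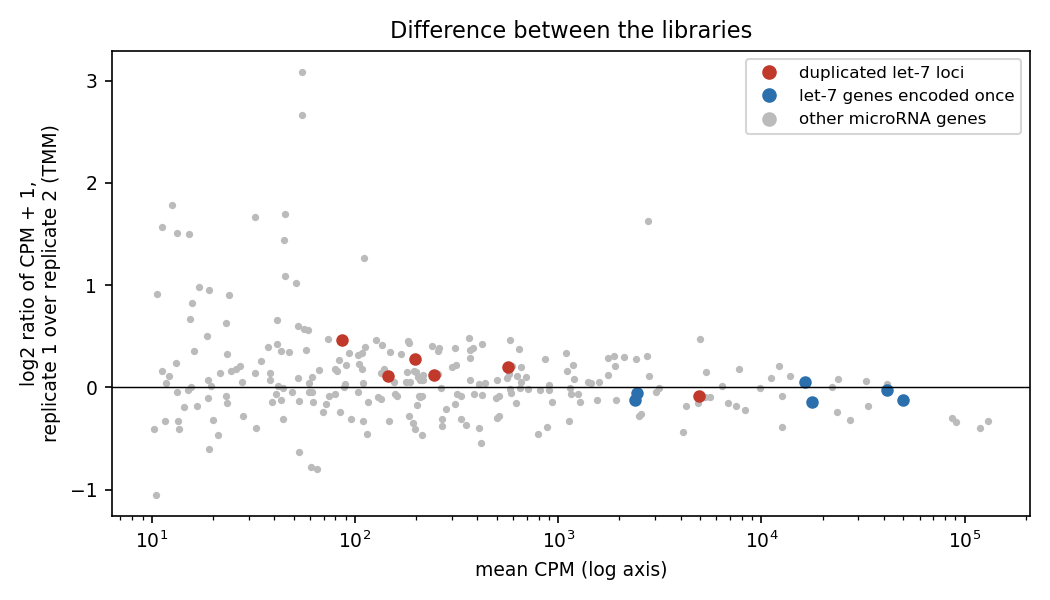
log2 ratio of replicate 1 over replicate 2 (y axis, CPM + 1 after TMM scaling) against mean CPM (x axis, log scale) for the 261 genes that averaged 10 CPM or more. The 6 duplicated let-7 loci, from −0.09 to 0.47, lie between the 5th and 95th percentiles of all genes, at −0.41 and 0.98.

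Likeness to the summed duplicated loci was measured as the distance in log2 ratio between libraries, among the 16 other genes whose mean CPM was within 2-fold of the summed 6145 ± 415 CPM. Nearest were Mir744, with 3120 ± 243 CPM and a ratio of −0.0077, Mir27b, with 9804 ± 784 CPM and −0.0037, and Mir195a, with 6374 ± 566 CPM and 0.015. Over 2 libraries this likeness rests on 1 ratio for each gene.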

How the data were processed

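The authors deposited 1 table per library with raw read counts of 2202 microRNA genes, in 3 columns (ignoring strand, on the gene's strand, on the opposite strand), plus 4 rows that name no gene. Per the labels the assembly was mm10, and per the deposited file descriptions the annotation was M21. Which aligner, counter and adapter trimmer were used is not given in the sources used. Those 4 rows stayed out of library sizes; reads aligned to several loci made up 70.4% and 73.3% of all reads in replicates 1 and 2, unmapped reads 7.05% and 6.02%, and reads outside genes 1.63% and 1.51%. All 2202 identifiers matched GENCODE M21.

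The gene-strand counts were used. Ratios between genes were log2 of counts + 0.5 within a library, with mean and SD over 2 libraries. Ratios between libraries used CPM + 1 after TMM scaling (edgeR 4.0.16). The ratio calculation was run on simulated counts that held counting error alone and changes larger than those of the 6 loci. That run does not cover small differences or the spread between animals. The planned search of the genome was replaced by one of annotated hairpins. Named genes were the 6 loci, the 6 single-copy members, 4 cluster neighbours and the 3 genes nearest in ratio. Tissue markers, microRNAs overlapping the loci on the opposite strand and Mir7j and Mir7k are named outside this rule, as are other duplicated microRNAs, the last after their values were seen. The loci and lists were chosen with earlier results of these data known. The spread between the libraries holds animal and technical differences together. Alternatives were the column that ignores strand, other library sizes, DESeq2 1.42.0 size factors, pseudocounts, minimums and window lengths, and leaving out each library.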

Additional observations from a re-analysis of the deposited data

How the results depend on the processing

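Of 105 alternatives over 23 results, 80 stayed within a set margin, 21 moved beyond it and 4 changed sign. The margin was the SD over the 2 libraries for shares and ratios between genes, and the counting interval for ratios between libraries. For hairpin windows it was an exact interval, and for counts of genes and places a fixed fold range. Leaving out 1 of 2 libraries cannot move a value beyond their SD, so those alternatives could check direction only. The share of the 6 duplicated loci in counted reads was 0.798% in the column that ignores strand, 0.124% of all reads and 0.706% without the most abundant gene. In the column that ignores strand, where Mirlet7f-1 is at 0, the calculation gave −15.13 over Mirlet7f-2 and −16.98 over Mirlet7d, values set by the pseudocount of 0.5 that measure no ratio. The log2 ratio of replicate 1 over replicate 2 of the summed loci changed sign to 0.14 under total-count scaling and to 0.26 with all reads as library size, and was −0.082 with DESeq2 size factors and −0.057 in the column that ignores strand. That of Mirlet7f-2 changed sign to 0.079 and 0.205 under total counts and all reads. The count of genes past 2-fold was 41 with no minimum and 2 at a minimum of 100 CPM. The share of hairpin windows at 1 locus, 95.3% at 22 bases, was 84.0% at 18, 90.4% at 20 and 98.5% at 24. Apart from the window length, causes were not tested. All 3 copy ratios and all 6 neighbour ratios kept their direction under the other alternatives run, leaving out either library included, and the Mirlet7f-1 ratios could not be read in the column that ignores strand. No paired analysis was possible because the samples form 1 group. No ratio between libraries could be had for Mirlet7f-1 in the column that ignores strand.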

Other observations

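The relation between the copies' counts and the first base at which they part was then looked up beyond let-7, after the let-7 values had been seen. Of the 23 other duplicated microRNAs, 20 passed 2 rules, which gave 21 mature strands. A mature strand had to be found once in both hairpins by the names and sequences of RefSeq. The copies also had to differ downstream of it before either annotated hairpin ended. At the first base downstream of the mature strand where the copies differ, 12 of these had U in 1 copy. The copy with U had more counts in 10 of the 12, among them Mir128, Mir16, Mir92 and Mir138, and fewer in Mir29b and Mir129. Mir129 rests on 15 summed counts. Mir365, counted among the 10, rests on 33, and its copy with U had 13 counts against 3 in replicate 1 but 8 against 9 in replicate 2. Of the mature strands with no U but A in 1 copy, the copy with A had more counts in 6 of 7, Mir450 being the other. With let-7 included, the copy with U was higher in 13 of 15, but the relation was first noticed in the 3 let-7 pairs, which are no separate check of it. These counts describe 2 libraries and reference sequence, have no test, and whether the base has a part in the counts was not tested.

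RefSeq names a let-7j and a let-7k in the genes Mir7j and Mir7k, which lie outside the 12 family genes used here. Mir7j had 98 counts in replicate 1 and 33 in replicate 2, and Mir7k had 1 count in each.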
